A study of Mus musculus with 10 samples.

Results

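The alpha-defensins described here are the probes for 8 genes of the mouse alpha-defensin (cryptdin) family, Defa21, Defcr-rs10, Defcr-rs2, Defcr-rs12, Defa31, Defa3, Defa24 and Defcr4, out of 27554 gene names on the array. They were picked for their levels on these same arrays, so those levels and differences are given as description, without a test. In all, 10 of 41143 probes represented them. For 7 genes a probe was found by name or accession, with 2 probes each for Defcr-rs2 and Defa3. Defa24 had no probe of its name, and it was read through a probe named Defcr6 whose annotation lists the Defa24 transcript among others. A further 6 probes carried other alpha-defensin names or accessions.

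RNA came from the ileum of adult C57BL/6 mice, 6 to 8 weeks old, on 10 one-colour arrays, 2 per group. The groups were TetON-Sox2 mice given doxycycline (DOX), TetON-Sox2 X TetON-Oct4 mice given DOX, TetON-Oct4 mice given DOX, rtTA control mice without the TetOP-Sox2 transgene given DOX, and TetON-Sox2 mice left without DOX. DOX was given at 2 mg/ml in drinking water with 1% sucrose for 2 days. The Sox2 -DOX mice had neither DOX nor sucrose. In Sox2 +DOX against Sox2 -DOX, the effects of DOX, sucrose and Sox2 induction thus cannot be told apart. TetON mice switch on the named transgene when DOX is given, and the labels do not name the promoter that drives rtTA. The labels speak of an animal and its replica without saying that each replica is another mouse, so the replicate spread behind each p-value may be technical.

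The arrays came from 3 slides. Slide 1 held Sox2 +DOX and Sox2 -DOX, slide 2 held Sox2xOct4 +DOX and rtTA +DOX, and slide 3 held Oct4 +DOX alone. Between groups on different slides, slide cannot be told apart from genotype or treatment. The Oct4 probe (Pou5f1) was well above background on both Oct4 +DOX and both Sox2xOct4 +DOX arrays and on no other array. The probe for Sox2 was well above background on none of the 10 arrays, so it gave no check of the Sox2 transgene. Between 63.5 and 70.5% of probes per array were well above background, and no probe was saturated.

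Alpha-defensins are small antimicrobial peptides made by Paneth cells, the granular cells at the base of the crypts of the small intestine. In the mouse they are stored as inactive precursors and cut to the active form by matrilysin (Mmp7). Their genes form a large cluster on chromosome 8 of near-identical copies, which differs in content between inbred strains, so a probe can bind transcripts of several copies. In whole ileum, fewer Paneth cells and less transcript per Paneth cell cannot be told apart.

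Some probes are close to each other in sequence. Probes can sit at different places of a transcript, so edit distances between probes do not measure how close the copies are. The 2 probes of Defcr-rs2 are 33 edits apart, and the 2 probes of Defa3 are 30 edits apart. Parts of the Defcr-rs10 probe and of the second Defcr-rs2 probe, 60 bases each, are given because their levels moved together, with capitals marking the 21 bases they share. Over their whole length these probes are 9 edits apart.
Defcr-rs10: tctcTGGAACCTCACTATCTGTCAAaaccc
Defcr-rs2: tcttTGGAACCTCACTATCTGTCAAgaccc
The Defcr-rs12 and Defa31 (array name Defcr-rs7) probes are given because they followed the same arrays at a smaller size, with capitals marking the 19 bases they share. They are 23 edits apart.
Defcr-rs12: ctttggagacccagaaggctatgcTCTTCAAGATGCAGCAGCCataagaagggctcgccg
Defcr-rs7: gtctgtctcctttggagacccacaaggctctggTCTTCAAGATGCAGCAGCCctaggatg
The Defa3 (array name Defcr3) and Defcr4 probes are given as members that were high on every array, with capitals marking the 15 bases they share. They are 13 edits apart.
Defcr3: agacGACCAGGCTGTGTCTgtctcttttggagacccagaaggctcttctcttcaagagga
Defcr4: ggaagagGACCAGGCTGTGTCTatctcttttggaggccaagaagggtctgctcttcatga
The Defa21 (array name Defcr21) probe is given because it was missing on 1 group. Its longest run shared with any of the other 15 alpha-defensin probes was 8 bases, with the Defcr23 probe. It was at least 32 edits from each, which does not show that the copy itself is more distinct.
Defcr21: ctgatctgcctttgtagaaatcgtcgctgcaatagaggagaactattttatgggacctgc

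On build NCBI36, the array's annotation puts the Defa21 probe at chr8:22521076-22521135, the Defcr4 probe at chr8:22559925-22559984, the Defa3 probes at chr8:22782305-22782364 and chr8:22782205-22782265, and the Defcr6 probe at chr8:23200234-23200852. The annotation used here gives no position for the probes of Defcr-rs10, Defcr-rs2, Defcr-rs12 and Defa31, and it does not say whether a probe lies in an exon's coding part or its UTR. Of the 10 probes, 5 list more than 1 RefSeq transcript. The Defa21 probe lists Defa22 as well, the Defcr4 probe lists Defa5 and Defa22, and the second Defa3 probe lists Defa20, Defa23 and Defa29. The second Defa3 probe also lists the transcript of the Defcr4 probe. The Defcr6 probe lists the transcript of the Defa1 probe, which is no member. These 2 probes, Defcr6 and Defa1, share a run of 27 bases and are 16 edits apart. Signals of these probes may therefore come from several copies. The transcript accessions of the Defcr-rs10, Defcr-rs2 and Defcr-rs12 probes matched no gene in the RefSeq list used here. Their signals too may come from other copies, so they are not read as those of single identified genes.

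The levels fell into 3 kinds. Levels are log2 of the processed signal minus the array's 75th percentile.

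Defcr-rs10, a cryptdin-related gene, was at -8.31 and 7.26 on the Sox2 +DOX arrays, 6.79 and 8.30 on the Sox2xOct4 +DOX arrays, 7.60 and 7.93 on the Oct4 +DOX arrays, 6.92 and 7.93 on the rtTA +DOX arrays, and -8.02 and -7.43 on the Sox2 -DOX arrays. It was thus not well above background on both Sox2 -DOX arrays and on Sox2 +DOX replicate 1, and high on the other 7 arrays. On the scanner's linear scale, the 2 Sox2 +DOX arrays read 3 and 147260. Sox2 +DOX replicate 2 was at least 12333-fold above replicate 1 of its own group, taking the lowest signal well above background as the floor for replicate 1.

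Both Defcr-rs2 probes, for a related cryptdin copy, showed the same arrangement. The first was at -7.23 and 7.53 on Sox2 +DOX, 7.23 and 8.44 on Sox2xOct4 +DOX, 7.73 and 8.19 on Oct4 +DOX, 6.96 and 7.85 on rtTA +DOX, and -8.20 and -5.93 on Sox2 -DOX. The second was at -8.38 and 7.80 on Sox2 +DOX, 7.35 and 8.75 on Sox2xOct4 +DOX, 8.02 and 8.53 on Oct4 +DOX, 7.24 and 8.25 on rtTA +DOX, and -8.08 and -5.82 on Sox2 -DOX. Neither was well above background on Sox2 +DOX replicate 1 or on either Sox2 -DOX array. Within the Sox2 +DOX group, replicate 2 was at least 14839-fold and 17942-fold above replicate 1.

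Defcr-rs12 followed the same arrays but did not drop out. It was at -0.84 and 4.46 on Sox2 +DOX, 3.65 and 5.93 on Sox2xOct4 +DOX, 5.11 and 5.33 on Oct4 +DOX, 4.69 and 5.68 on rtTA +DOX, and -0.87 and -0.52 on Sox2 -DOX, and was well above background on all 10 arrays. Sox2 +DOX replicate 2 stood 39.4-fold above replicate 1. Defa31, another alpha-defensin, was at 4.03 and 6.97 on Sox2 +DOX, 6.62 and 8.43 on Sox2xOct4 +DOX, 7.84 and 8.00 on Oct4 +DOX, 7.18 and 8.07 on rtTA +DOX, and 4.10 and 4.51 on Sox2 -DOX, again with replicate 1 of Sox2 +DOX beside the Sox2 -DOX arrays. Replicate 2 was 7.68-fold above replicate 1.

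Defa21 had another pattern. It was at 7.66 and 7.04 on Sox2 +DOX, 6.43 and 8.35 on Sox2xOct4 +DOX, -8.34 and -7.97 on Oct4 +DOX, 6.92 and 7.89 on rtTA +DOX, and 7.99 and 7.95 on Sox2 -DOX. It was not well above background on either Oct4 +DOX array and high on the other 8, including both arrays of mice that carry the Oct4 transgene together with Sox2. The Pou5f1 level was lower on those Sox2xOct4 +DOX arrays than on the Oct4 +DOX arrays. The Oct4 +DOX level was lower than that of rtTA +DOX by at least 10657-fold. The Oct4 +DOX arrays were the only ones on slide 3, so slide and genotype cannot be told apart.

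The other members were high throughout. Defa3 was between 7.25 and 8.70 on its first probe and between 4.17 and 7.84 on its second over the 10 arrays. Defcr4 was between 7.07 and 8.67, and the Defcr6 probe read for Defa24 was between 6.78 and 8.18. Of the 10 member probes, 6 were well above background on all arrays. All 4 probes of these always-high members had their highest scaled level on Sox2xOct4 +DOX replicate 2, whose 75th percentile was 590. On the scanner's linear scale all 4 were highest on rtTA +DOX replicate 2, whose 75th percentile was 913. Which array was highest thus depended on the scaling.

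**Figure D1:**
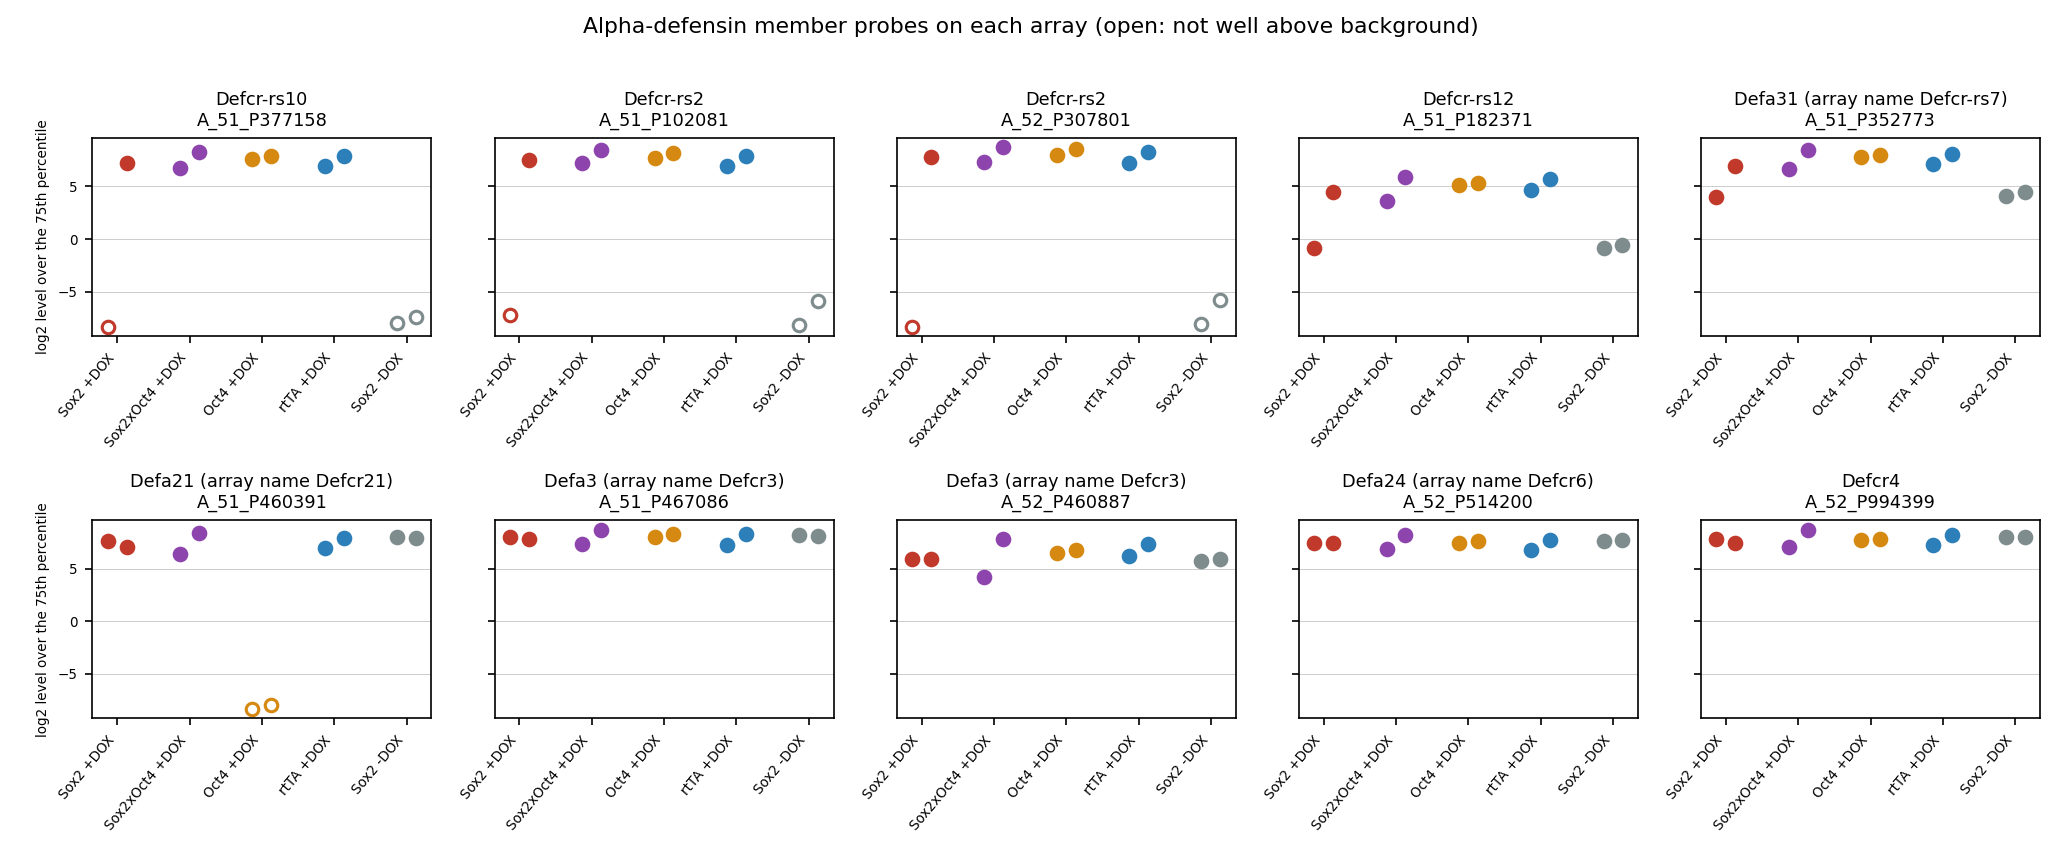
Level of the 10 alpha-defensin member probes on each array (log2 over the array's 75th percentile), 1 panel per probe and 1 point per array, open where the probe was not well above background. Defcr-rs10 and both Defcr-rs2 probes drop out on 3 arrays and Defa21 drops out on the 2 Oct4 +DOX arrays, while Defa3, Defa24 (Defcr6 probe) and Defcr4 do not drop out.

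Because replicates of a group fell on opposite sides, group means of Defcr-rs10 and Defcr-rs2 describe no array. The Sox2 +DOX mean of Defcr-rs10 was -0.52 ± 11.01 and that of Sox2 -DOX was -7.72 ± 0.42 (SD, n = 2 each), with 1 of 2 and 0 of 2 arrays well above background. The Sox2 +DOX and Sox2 -DOX arrays did not overlap for 5 of 10 member probes, against 66.4% of all 19056 tested genes. In Sox2 +DOX 4 of these were lower (36.6% of all genes), namely Defa21, Defcr4, the Defcr6 probe and the first Defa3 probe, and the second Defa3 probe was higher (29.8% of all genes). Their log2 differences were -0.62 for Defa21, -0.40 for Defcr4, -0.24 for Defcr6, -0.26 for the first Defa3 probe and 0.12 for the second. The lower levels depended on the scaling. On the scanner's linear scale the first Defa3 probe was higher in Sox2 +DOX, at 217658 and 215085 against 194470 and 209261. The Defcr6 probe was higher too, at 153220 and 162225 against 137777 and 151235. Defa21 and Defcr4 overlapped on that scale, and the second Defa3 probe stayed higher. Sox2xOct4 +DOX and rtTA +DOX overlapped for all 10 probes (52.7% of all genes do not overlap). Oct4 +DOX and rtTA +DOX did not overlap for 1 probe, Defa21, against 46.3% of all genes. Sox2 +DOX and rtTA +DOX did not overlap for 3 probes (Defcr-rs12, Defa31 and the second Defa3 probe), against 63.0%, all of them lower in Sox2 +DOX (33.6% of all genes). Here too slide and genotype differ together. The rtTA +DOX and Sox2 -DOX arrays did not overlap for 7 probes, against 43.2%, of which 6 were higher in rtTA +DOX (20.6% of all genes) and Defa21 was lower. The rtTA +DOX group, which carries no TetOP-Sox2 transgene, thus stood above Sox2 -DOX for Defcr-rs10, both Defcr-rs2 probes, Defcr-rs12, Defa31 and the second Defa3 probe. Defa21, lower in rtTA +DOX after scaling, was higher there on the linear scale, at 195292 and 215895 against 174466 and 183151. For Defcr-rs12 the difference was 5.88 (58.8-fold), with rtTA +DOX at 5.18 ± 0.70 and Sox2 -DOX at -0.70 ± 0.25 (SD, n = 2 each). These 2 groups lie on different slides and differ in genotype as well as in DOX and sucrose, which cannot be told apart.

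Of 19056 tested genes, 17 (0.0892%) differed by more than 5 log2 between the 2 Sox2 +DOX arrays, and 3 of them were alpha-defensins (Defcr-rs2, Defcr-rs10 and Defcr-rs12). This size of gap was chosen after the values were seen. The corresponding counts were 22 in Sox2xOct4 +DOX, 50 in Oct4 +DOX, 6 in rtTA +DOX and 7 in Sox2 -DOX. The arrays of the Sox2 +DOX pair correlated at 0.973 over all tested genes.

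**Figure D2:**
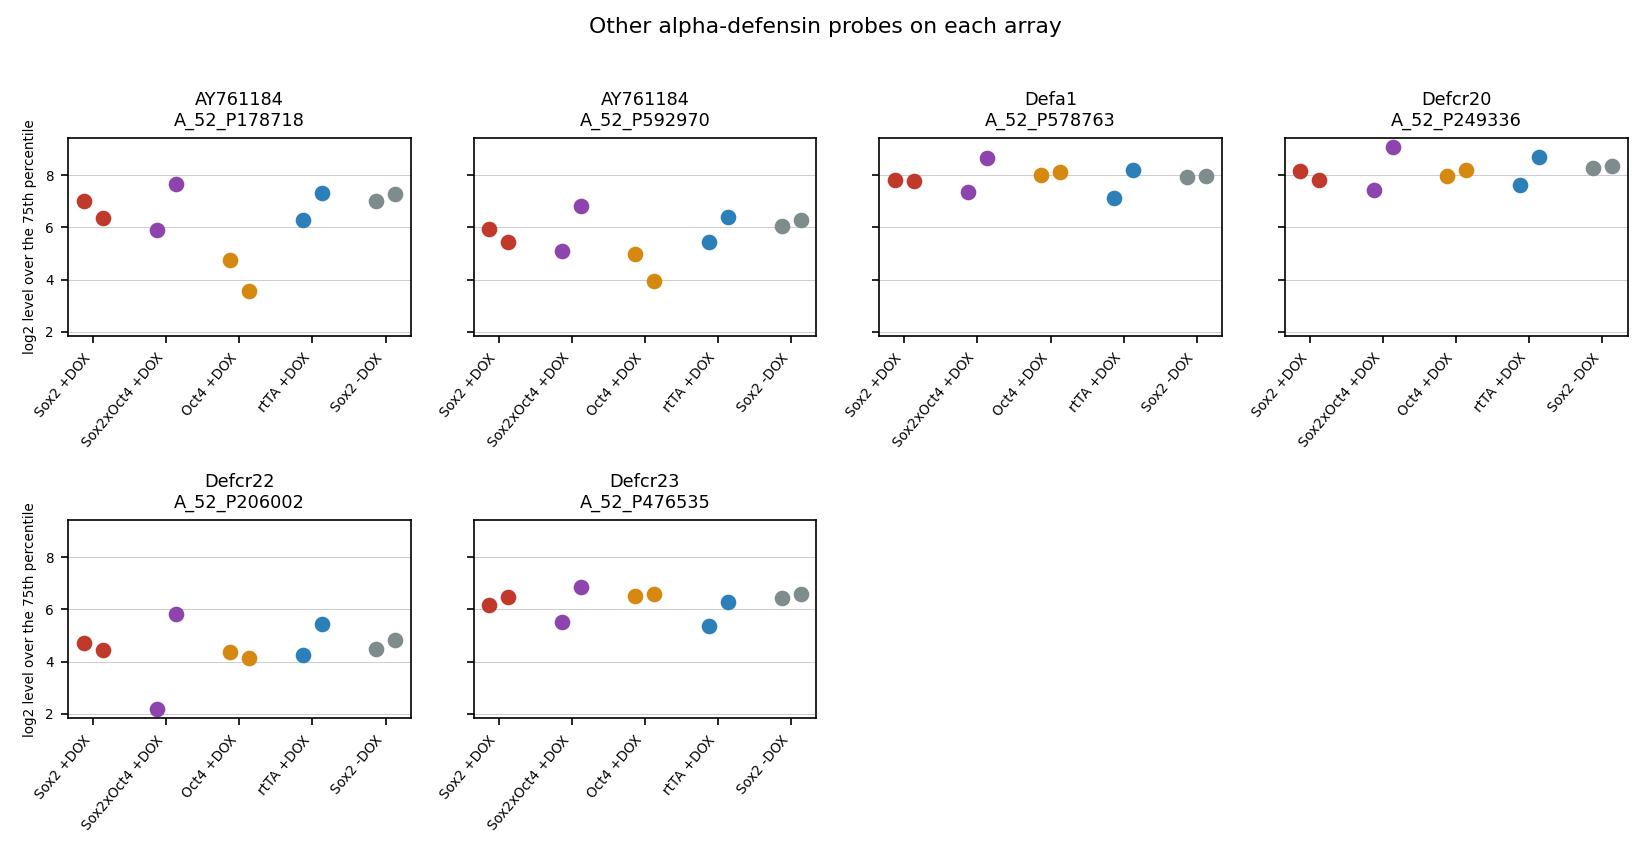
Level of the 6 other alpha-defensin probes on each array (log2 over the array's 75th percentile), 1 point per array. All 6 were well above background on all arrays; both AY761184 probes were lowest on the 2 Oct4 +DOX arrays.

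The 6 other alpha-defensin probes, Defcr20, Defcr22, Defcr23, Defa1 and 2 probes named AY761184 (RefSeq Defa39), were well above background on all 10 arrays. The AY761184 probes were taken in by their RefSeq symbol, outside the rule on names. The first was at 4.75 and 3.56 on Oct4 +DOX, against 6.28 and 7.32 on rtTA +DOX, and its lowest level on the other 6 arrays was 5.90, on Sox2xOct4 +DOX replicate 1. The second was at 4.99 and 3.93 on Oct4 +DOX, against 5.43 and 6.39 on rtTA +DOX. Both were thus lowest on the arrays that lacked Defa21, without dropping out. Defcr22 was at 2.17 on Sox2xOct4 +DOX replicate 1, its lowest value, and 5.84 on replicate 2.

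For the member probe with the widest range, the second Defcr-rs2 probe, the genes with the most similar level over the 10 arrays were AK089856 (r = 0.958), Pisd (0.930), Zbtb46 (0.930), TC1710650 (0.875) and Nrn1 (0.871). These are correlations across 10 arrays that share slides and groups, given without a test. Zbtb46 encodes a zinc finger transcription factor and was at -5.53 and -0.71 on Sox2 +DOX, -1.82 and 2.35 on Sox2xOct4 +DOX, 0.82 and 0.73 on Oct4 +DOX, 0.75 and 2.67 on rtTA +DOX, and -5.52 and -5.19 on Sox2 -DOX. The AK089856 probe lies at chr8:24711578-24711637 and was at -4.11 and -0.76 on Sox2 +DOX, -0.84 and -0.92 on rtTA +DOX, and -3.15 and -2.84 on Sox2 -DOX. Both were thus lower on the 3 arrays without Defcr-rs2 signal than on the other 7. No gene outside the family shared the flags of this probe on all arrays with a gap above 3 log2, although 7 shared its flags. For Defa21, taken up after its values were seen, 58 genes shared the flags, and 1, AK084963, with a gap above 3 (3.63). AK084963 was at -8.18 and -7.79 on Oct4 +DOX, against -2.81 and -3.83 on rtTA +DOX, and its probe lies at chr8:27542825-27542884. Of the 10 genes, the 5 most similar to each of these probes, 2 lay on chromosome 8, where 5.05% of tested genes with a position lie. They were picked by likeness to the members' own levels, so this share is description only.

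**Figure D3:**
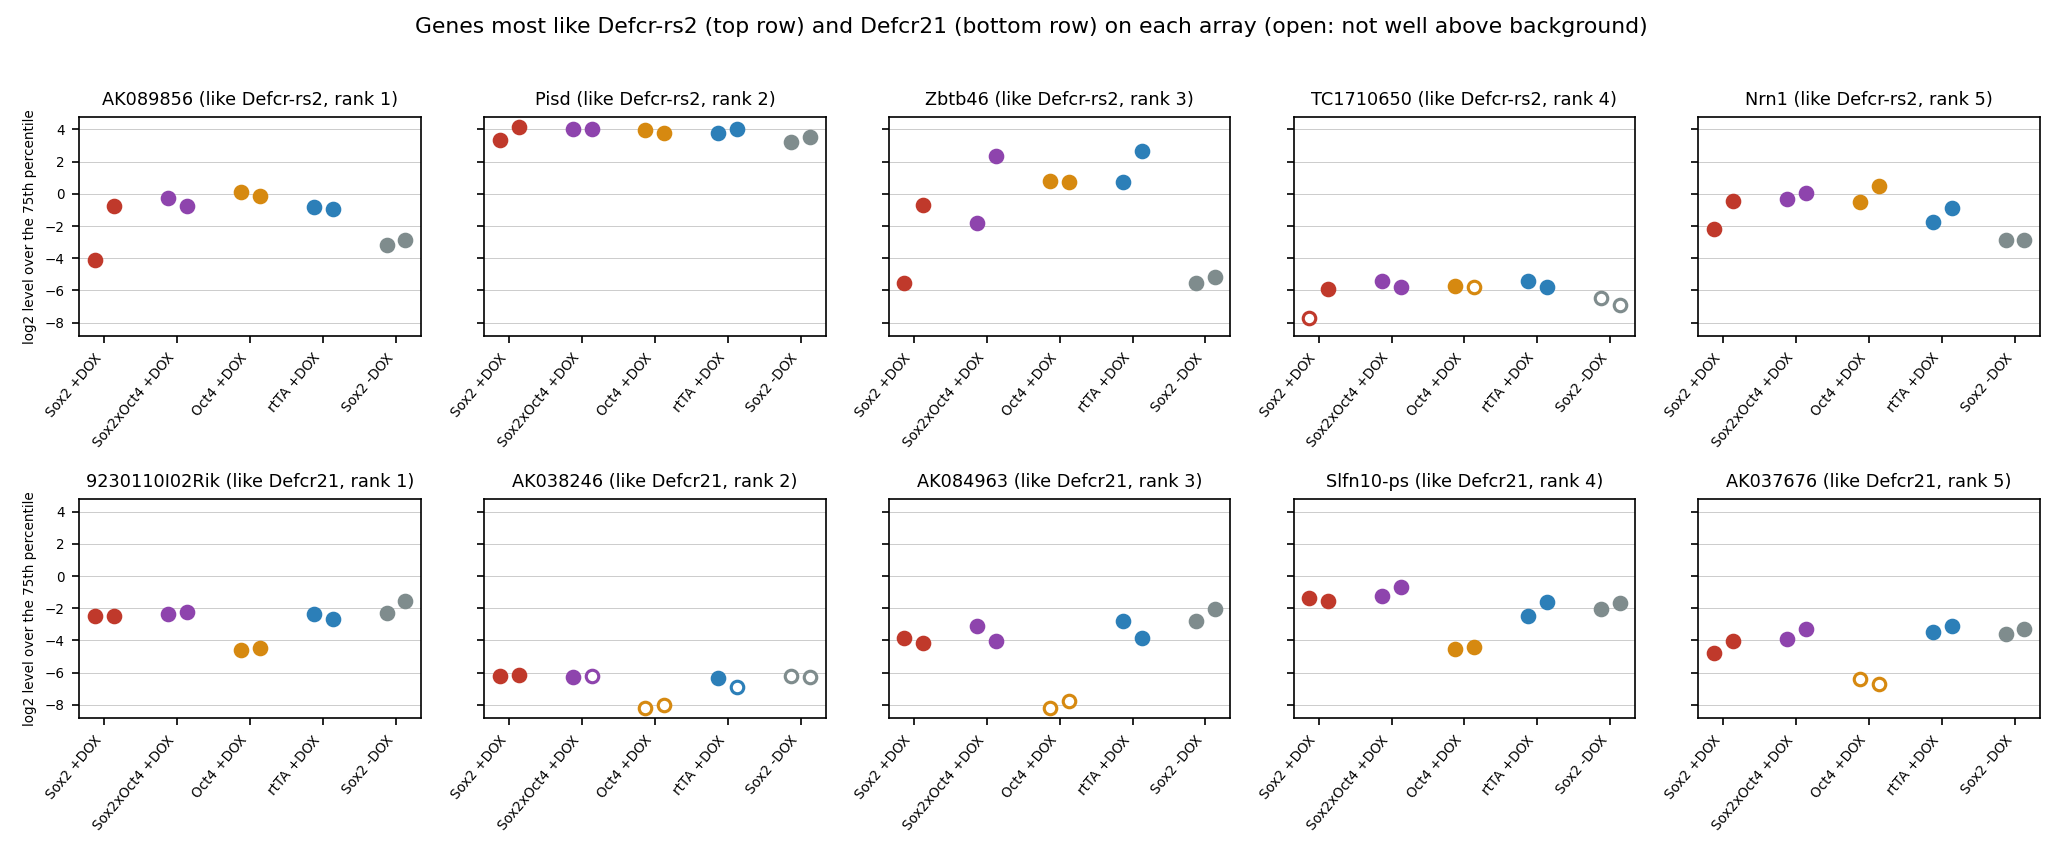
Level of the 5 genes most similar to the second Defcr-rs2 probe (top) and to Defa21 (Defcr21, bottom) on each array (log2 over the array's 75th percentile), 1 point per array, open where not well above background. AK089856 and Zbtb46 are low on the 3 arrays where Defcr-rs2 is not well above background, and AK084963 is lowest on the 2 Oct4 +DOX arrays.

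The other genes of the Paneth cell were measured by tests across all genes, since they did not choose the members. Of 28 genes listed, 27 were measured (Mptx2 had no probe). With limma at an adjusted p under 0.05, 0 of 27 changed in Sox2 +DOX against Sox2 -DOX, where 7.83% of all tested genes did and 6 of 27 had an unadjusted p under 0.05. In Sox2xOct4 +DOX against rtTA +DOX, 1 of 27 rose, against 6.34% of all genes called (3.19% higher), with 9 of 27 at an unadjusted p under 0.05. In Oct4 +DOX against rtTA +DOX it was 0 of 27 against 1.01%, with 8 unadjusted. In Sox2 +DOX against rtTA +DOX it was 0 of 27 against 8.37%, with 6 unadjusted, and in rtTA +DOX against Sox2 -DOX it was 0 of 27 against 0%, with 1 unadjusted. The share of all tested genes at an unadjusted p under 0.05 is not given for these comparisons. The unadjusted counts thus have no background to be read against. Median log2 differences of the list were -0.22, -0.70, -0.54, -0.80 and 0.38 in that order, with all tested genes at -0.10, 0.07, 0.01, -0.04 and 0.01. Calls changed when 1 array was left out, which leaves 1 array in a group, assumed to vary like the other groups. Without Sox2 +DOX replicate 2, Gfi1, Dll4, Spdef, Fzd5 and Sox9 were called against Sox2 -DOX. Against rtTA +DOX the same held for Dll4, Spdef, Fzd5 and Sox9. Without Sox2xOct4 +DOX replicate 2, Clps and Ang4 were called against rtTA +DOX. Without either Sox2xOct4 +DOX array, Mptx1 was called in Sox2 +DOX against Sox2 -DOX, and Clps in Sox2 +DOX against rtTA +DOX. These calls have no share of all genes beside them and are not read as a result about the list.

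Mptx1, a mucosal pentraxin of Paneth cells, was the gene that rose. It was at 5.93 and 7.78 in Sox2xOct4 +DOX, against 3.11 and 4.69 in rtTA +DOX (log2 difference 2.95, SE 0.656, limma adjusted p = 0.0387), and the groups did not overlap. This call was lost in 10 of 16 alternatives, with adjusted p up to 0.239 in limma, namely in the 2 groups alone, without Sox2xOct4 +DOX replicate 2, and without either array of Sox2 +DOX, Oct4 +DOX, rtTA +DOX or Sox2 -DOX. It was at 5.66 and 5.56 in Sox2 +DOX, against 3.27 and 3.78 in Sox2 -DOX, with adjusted p = 0.0907 from limma. It passed in 6 of 17 alternatives, among them leaving out either Sox2xOct4 +DOX array (limma adjusted p = 0.0433). Mmp7, which cuts the alpha-defensin precursors, was at 3.83 and 4.05 in Sox2 +DOX, against 1.40 and 2.59 in Sox2 -DOX, a log2 difference of 1.95 (SE 0.611) that did not pass at a limma adjusted p of 0.0902. Lyz1, the Paneth cell lysozyme, was at 6.39 and 6.15 in Sox2 +DOX, against 6.06 and 6.65 in Sox2 -DOX, and overlapped between them. It was well above background on all 10 arrays, the 3 without Defcr-rs10 signal among them.

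Ang4, an antimicrobial ribonuclease of Paneth cells, was at -0.30 and 3.32 in Sox2xOct4 +DOX, against 3.55 and 4.96 in rtTA +DOX (log2 difference -2.75, SE 1.08, limma adjusted p = 0.17). Among genes for Paneth cell formation, Sox9 was at a log2 difference of -1.30 (SE 0.382) in Sox2 +DOX against Sox2 -DOX with a limma adjusted p of 0.0762, and Dll4, a Notch ligand, at -1.98 (SE 0.563) with 0.0697. Ephb3, which positions Paneth cells, was at 1.70 (SE 0.48) in Sox2xOct4 +DOX against rtTA +DOX with a limma adjusted p of 0.0765. None of these passed with all arrays in the fit described here. Ephb3 passed with a variance trend (limma adjusted p = 0.0474), Ang4 without Sox2xOct4 +DOX replicate 2 (0.027), and Sox9 (0.0403) and Dll4 (0.0234) without Sox2 +DOX replicate 2.

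**Figure D4:**
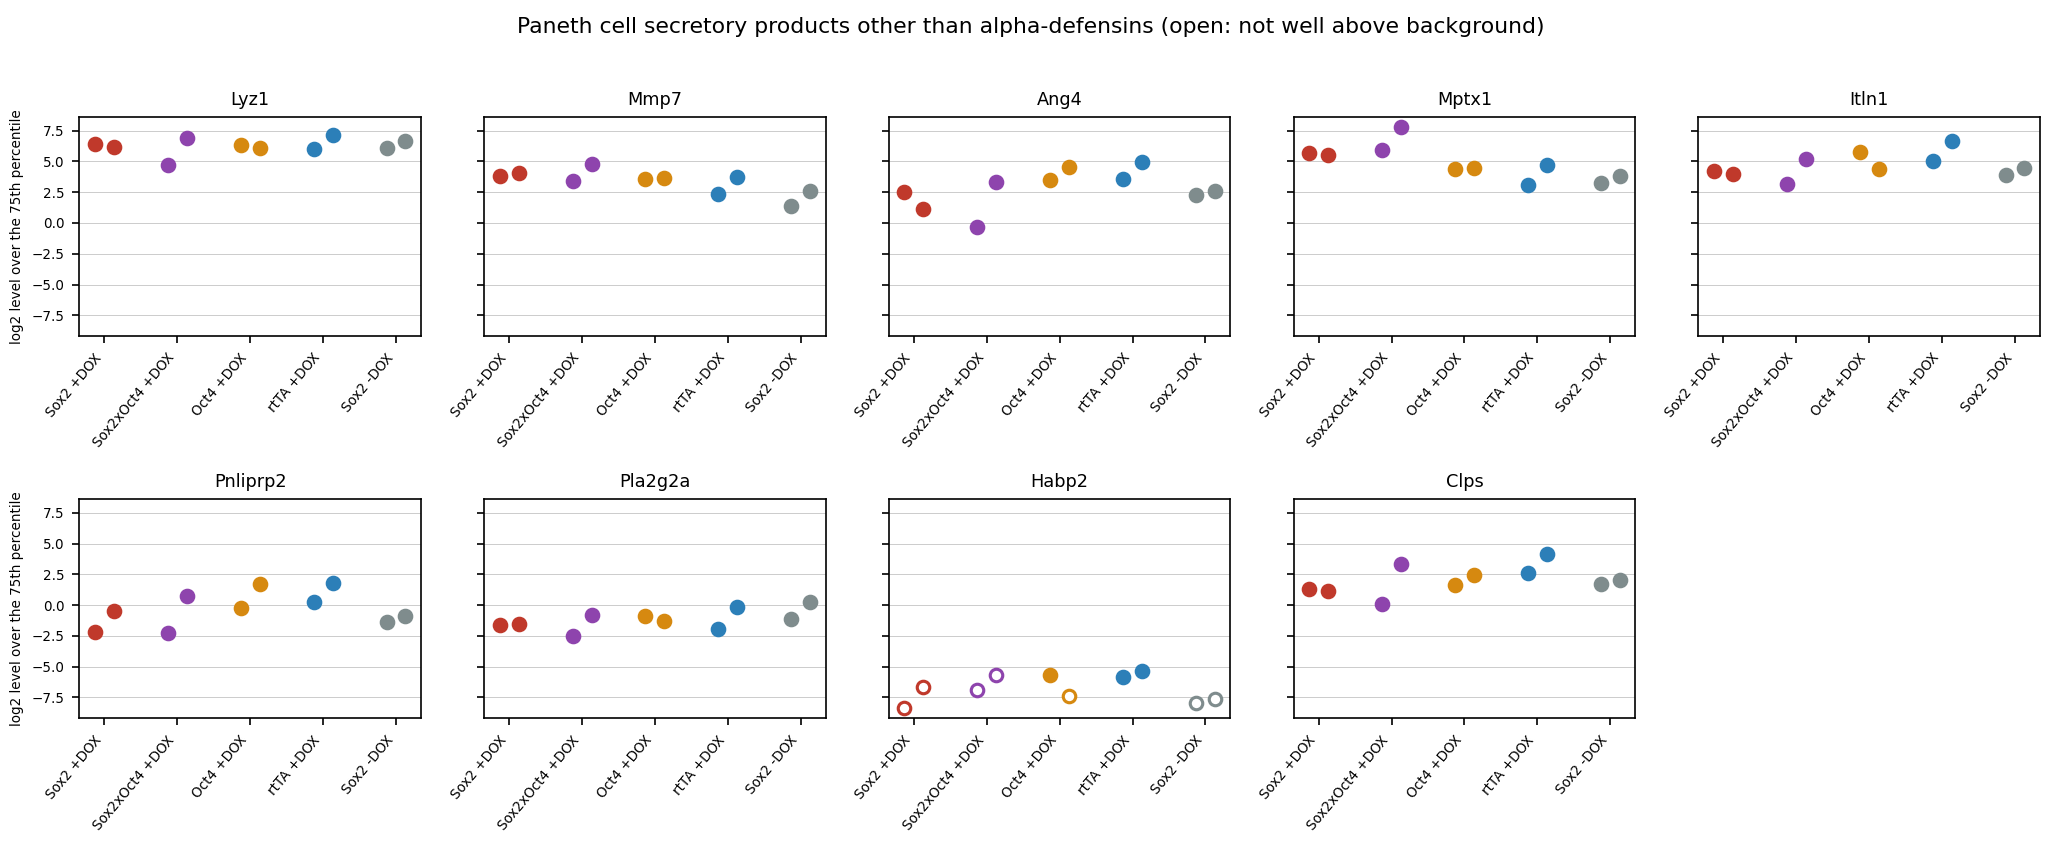
Level of 9 Paneth cell secretory products other than alpha-defensins on each array (log2 over the array's 75th percentile), 1 point per array, open where not well above background. Lyz1, Mmp7, Ang4 and Itln1 are well above background on all 10 arrays.

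Markers of other cell types that the tissue holds moved in some of the same comparisons. Of 7 neutrophil markers, 4 were tested and Elane and Ngp were well above background on no array. In Sox2xOct4 +DOX against rtTA +DOX 2 of 4 rose, S100a9 and S100a8, where 3.19% of all tested genes were called higher. For S100a8 the log2 difference was 4.69 (SE 0.818, limma adjusted p = 0.0188), with neither rtTA +DOX array well above background. S100a8 did not pass in Sox2 +DOX against Sox2 -DOX (0.0539) or Oct4 +DOX against rtTA +DOX (0.373). S100a9, a calcium-binding protein abundant in neutrophils, was at 0.54 and 1.15 in Sox2xOct4 +DOX, against -4.71 and -4.37 in rtTA +DOX (log2 difference 5.38, SE 0.578, limma adjusted p = 0.00358). It was at -1.33 and 0.01 in Oct4 +DOX, where Defa21 was not well above background, a log2 difference of 3.88 against rtTA +DOX (SE 0.578, limma adjusted p = 0.0243). That call was lost without Oct4 +DOX replicate 2 (limma adjusted p = 0.101), without rtTA +DOX replicate 1 (0.186) or replicate 2 (0.121), and under normexp and quantile normalization (0.0777). S100a9 was at -0.31 and -1.33 in Sox2 +DOX, against -4.20 and -3.08 in Sox2 -DOX (log2 difference 2.82, SE 0.578, limma adjusted p = 0.0268). That call was lost in 5 of 17 alternatives, among them leaving out Sox2 +DOX replicate 1 (limma adjusted p = 0.183) and Sox2 -DOX replicate 1 (0.166) or replicate 2 (0.0621). Mpo, the neutrophil myeloperoxidase, did not pass, with log2 differences of -0.14 in Sox2xOct4 +DOX and 0.50 in Oct4 +DOX against rtTA +DOX (limma adjusted p = 0.837 and 0.571). The summed linear level of the 7 markers was 0.809 to 3.94 in Sox2 +DOX, against 0.313 to 0.318 in Sox2 -DOX. It was 2.57 to 3.98 in Sox2xOct4 +DOX and 0.557 to 1.23 in Oct4 +DOX, against 0.161 to 0.172 in rtTA +DOX. These sums rest mainly on Ltf and S100a9. Ltf was at 1.58 and -1.68 in Sox2 +DOX and at 1.28 and -3.33 in Sox2xOct4 +DOX. It did not pass against Sox2 -DOX or rtTA +DOX respectively (limma adjusted p = 0.303 and 0.299). The part of the neutrophil markers in the alpha-defensin levels was not tested. Of 9 enterocyte genes, 2 fell in Sox2 +DOX against Sox2 -DOX, where 7.83% of all tested genes were called, 38.7% of these higher. The 2 were the glucose transporter Slc5a1 and the intestinal alkaline phosphatase Alpi (for Alpi, log2 difference -4.74, SE 0.807, limma adjusted p = 0.0143). In the same comparison 1 of 5 stem genes (Ascl2) and 1 of 5 enteroendocrine genes (Cck) also fell, and none of these rose. The Alpi call was lost without Sox2 +DOX replicate 1 (limma adjusted p = 0.098) and without Sox2 -DOX replicate 1 (0.106) or replicate 2 (0.0688). The difference between the Sox2xOct4 +DOX response against rtTA +DOX and the Sox2 +DOX response against Sox2 -DOX passed for 0 of 63 list genes with limma, and for 32 of 19056 tested genes. At an unadjusted limma p under 0.05 it was 1 of 63 list genes, against 1831 of 19056 tested genes.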

How the data were processed

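RNA from 10 ileum samples was measured on one-colour Agilent arrays, and samples were grouped by the genotype, DOX and replicate labels. The deposited files hold processed intensity per spot, background-subtracted by Agilent Feature Extraction, per the file headers (9.5.3.1, 10.7.1.1 and 10.7.3.1; the submitters' processing notes name 9.1). The authors' deposited table for the 4 TetON-Sox2 arrays holds a normalized ratio and an intensity per probe; no source used here describes its processing, and it served only as an alternative.

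Outlier spots were left out, spots of a probe averaged, and the array's 75th percentile subtracted from the log2 intensity. A probe was kept if 1 or more groups had it well above background on every array (28761 of 41143), and each gene was represented by its brightest probe on average (19056 genes). The 10 arrays, 2 per group, limit precision. limma 3.58.1 in R 4.3.3 fitted 1 mean per group over all arrays, with p-values adjusted by the Benjamini-Hochberg method and a call at 0.05; the fit was tested on simulated data. Where a group was not well above background, a fold is a lower bound set by the faintest signal well above background on the array. The members, gene lists and rules for named genes were chosen with earlier results of these data known: all members on every array, other alpha-defensins by name, marker genes with the smallest p, and genes most like the member of widest range. Edit distances used edlib. The alternatives were other normalizations, filters, variance models, replicate and slide blocks, and leaving out each array.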

Additional observations from a re-analysis of the deposited data

How the results depend on the processing

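Of the 100 member levels, 14 lay more than 5 log2 below their probe's highest, and 14 did under quantile normalization with or without normexp. The authors' deposited table gave 12 on its 4 arrays, against 11 there. The Defcr6 probe differed between the Sox2 +DOX replicates by 0.032 under normexp and quantile, against -0.053, so its sign turned. The Lyz1 difference of Sox2 +DOX against Sox2 -DOX, not called in any setting, turned to 0.0498 under normexp and quantile and 0.0461 under quantile, and ran from -0.377 to 0.211 leaving out 1 array. The uncalled Mpo difference of Sox2xOct4 +DOX against rtTA +DOX ran from -0.389 to 0.117 in the same way.

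The number of genes called moved as follows. In Sox2 +DOX against Sox2 -DOX it was 932 with no filter, 640 in the 2 groups alone and 693 in the authors' table, against 1493, and 165 to 1744 leaving out 1 array. In Sox2xOct4 +DOX against rtTA +DOX it was 776 with no filter and 473 in the 2 groups alone, against 1208, and 105 to 1249 leaving out 1 array. In Oct4 +DOX against rtTA +DOX it was 116 under normexp and quantile, against 192, and 35 to 215. In Sox2 +DOX against rtTA +DOX it was 1045 with no filter and 936 in the 2 groups alone, against 1595, and 195 to 2178. In rtTA +DOX against Sox2 -DOX it was 2 with a variance trend, 13 in the 2 groups alone and 1 with the floor, against 0, and 0 to 11. The low counts came without an array of either group compared (165 without Sox2 -DOX replicate 1, 105, 35 and 195 without rtTA +DOX replicate 1). Under normexp and quantile, the higher share of calls was 49.3% in Sox2 +DOX against Sox2 -DOX, compared with 38.7%, with the log2 median of all genes at 0.0047 compared with -0.10, and 49.7% in Sox2 +DOX against rtTA +DOX, compared with 38.6%.

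Of the 27 Paneth genes, 1 was called in Sox2 +DOX against Sox2 -DOX under normexp and quantile, quantile, the 2 groups alone and the authors' table (Mptx1 each time). In Sox2xOct4 +DOX against rtTA +DOX it was 0 with no filter and in the 2 groups alone, and 2 with a variance trend (Mptx1 and Ephb3). Leaving out 1 array changed the calls in these 2 comparisons and in Sox2 +DOX against rtTA +DOX. In Sox2 +DOX against Sox2 -DOX, most were called without Sox2 +DOX replicate 2.

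The replicate numbers were not taken to pair the samples. Correlations of same-numbered deviations ran from -0.13 to 0.24, the highest for Sox2xOct4 +DOX and rtTA +DOX, which share a slide. These values do not settle whether samples are paired. A replicate block called 1 Paneth gene in Sox2 +DOX against Sox2 -DOX (Mmp7, adjusted p = 0.0355 in limma), 2 in Sox2xOct4 +DOX against rtTA +DOX (Mptx1, and Ephb3 at 0.0289) and 1 in Sox2 +DOX against rtTA +DOX (Pnliprp2), and 2 genes in all in rtTA +DOX against Sox2 -DOX. A slide block left within-slide values as they were, since each group lies on 1 slide. The cause of these shifts was not tested.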

Other observations

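Beta-defensins, a separate family of antimicrobial peptides, were mostly not detected: 17 of 30 probes were well above background on no array and 2 on all 10. Defb1 was at -4.26 and -2.27 in Sox2 +DOX, at -4.07 and -4.09 in Sox2xOct4 +DOX, and at -7.65 and -7.90 in Oct4 +DOX, against -7.19 and -5.92 in rtTA +DOX and -8.16 and -6.60 in Sox2 -DOX, on its first probe. Defb37 was not well above background on the 4 Sox2 +DOX and Sox2xOct4 +DOX arrays and was above it on the other 6. Neither was chosen before its values were seen.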
